A study of Homo sapiens with 6 samples.

Results

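The genes described here encode the eukaryotic translation initiation factors, the proteins that bring messenger RNA, initiator tRNA and the ribosomal subunits together at a start codon. They were taken as all genes whose symbol in the platform annotation begins with EIF and a digit, leaving out the kinases and binding proteins that act on the factors, the EIF5A genes, Y-linked genes, antisense or divergent transcripts and pseudogenes. This gave 40 of the 21357 genes named in the table, on 107 of 54613 probe sets. The brightest probe set by mean level stood for each gene, and since EIF3C and EIF3CL share theirs, the 40 genes rest on 39 probe sets.

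The cells were HCT116, an established human colorectal carcinoma line. In one group of 3 samples CDK4 was targeted by a siRNA pool and CDK6 by a single siRNA product, at 30 nM each, and the other 3 had received 30 nM each of 2 non-targeting control siRNA products. RNA was taken 96 h after transfection and measured on single-channel Affymetrix arrays, with the series title placing the comparison in the context of MYC and adaptation to loss of CDK4/6 activity. The knockdown was transient and partial, and the labels call the samples biological replicates without saying whether they came from separately started cultures, so p-values measure the spread between these samples. In RNA from whole cultures, a change in the share of cells that express a gene and a change per cell cannot be told apart.

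Initiation runs in steps. The initiator tRNA is carried to the small ribosomal subunit by the GTPase eIF2, which is recharged by its exchange factor eIF2B; eIF3, eIF1 and eIF1A prepare the small subunit; eIF4F binds the cap of the messenger RNA and unwinds it; and eIF5 and eIF5B complete start codon selection and subunit joining. Initiation is known as a control point for growth, since signalling through mTOR acts on cap binding and stress kinases act on eIF2, and MYC is known to raise the expression of several initiation factors.

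Levels are given as log2 RMA values, and changes are CDK4/6 siRNA minus control siRNA with n = 3 arrays per group. Array medians over all probe sets lay between 5.36 and 5.39, and the arrays correlated across genes at 0.998 within groups and 0.991 to 0.994 between groups. Both siRNA targets fell without overlap between groups, CDK6 by 1.56 (SE 0.055), leaving 34.0% of its control value, and CDK4 by 0.69 (SE 0.082), leaving 62.2%. MYC rose by 0.42 (SE 0.059). Of the epithelial markers, EPCAM, KRT8, KRT18, KRT19 and CDH1 were bright, with control means from 10.96 to 13.16, whereas the intestinal markers VIL1, LGALS4, CDX1 and CDX2 were dim, between 4.46 and 5.97. KRT8 and KRT18 rose by 0.59 and 0.51 and CDH1 fell by 0.54. Of the markers of other cells, PTPRC, CD3E, PECAM1, COL3A1 and ALB had control means from 3.78 to 6.29, and COL1A1 stood at 8.09 and fell by 0.49. The part of these markers in the results below was not tested.

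Initiation factor genes rose more often than they fell. Of 39 probe sets tested, 17 were higher, 4 were lower and 18 did not pass an adjusted p of 0.05 (limma, adjusted over all 20284 genes tested). Over all genes 27.2% were called, 14.2% higher and 13.0% lower. The members are bright, with a median level of 11.48 against 6.52 for all genes, and bright genes were called more often: among the 7165 genes at least as bright as the dimmest member, EIF4E3, 49.6% were called, 27.5% higher and 22.1% lower. The total share of members called, 53.8%, was near that of these bright genes. Their set starts at the level of EIF4E3, 7.73, so it is not matched to the members, whose median is 11.48. The median change of the members was 0.14, against -0.0010 for all genes and 0.013 for the bright genes.

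The changes were small, between -0.36 and 0.65 on the log2 scale. EIF2B1 rose 1.57-fold and EIF3J 1.53-fold, and EIF1B fell furthest, to 77.8% of the control level. The values of the groups did not overlap for 31 of the 39, against 41.1% of all genes and 70.4% of the bright genes. With the arrays scaled to the hybridisation spike-ins, control RNAs added to the hybridisation mix, the median of all genes moved to 0.10, the share of higher among all calls went from 52.2% to 77.3%, and 21 members were higher and 2 lower. With CDK4/6 siRNA replicate 3 left out, 13 were higher and 2 lower. Control replicate 3 was the lowest control for all higher members except EIF1AX and EIF5B. With it left out, 14 were higher and 3 lower. RMA makes the distributions of the arrays alike, so all changes below are relative to the bulk of the genes.

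**Figure D1:**
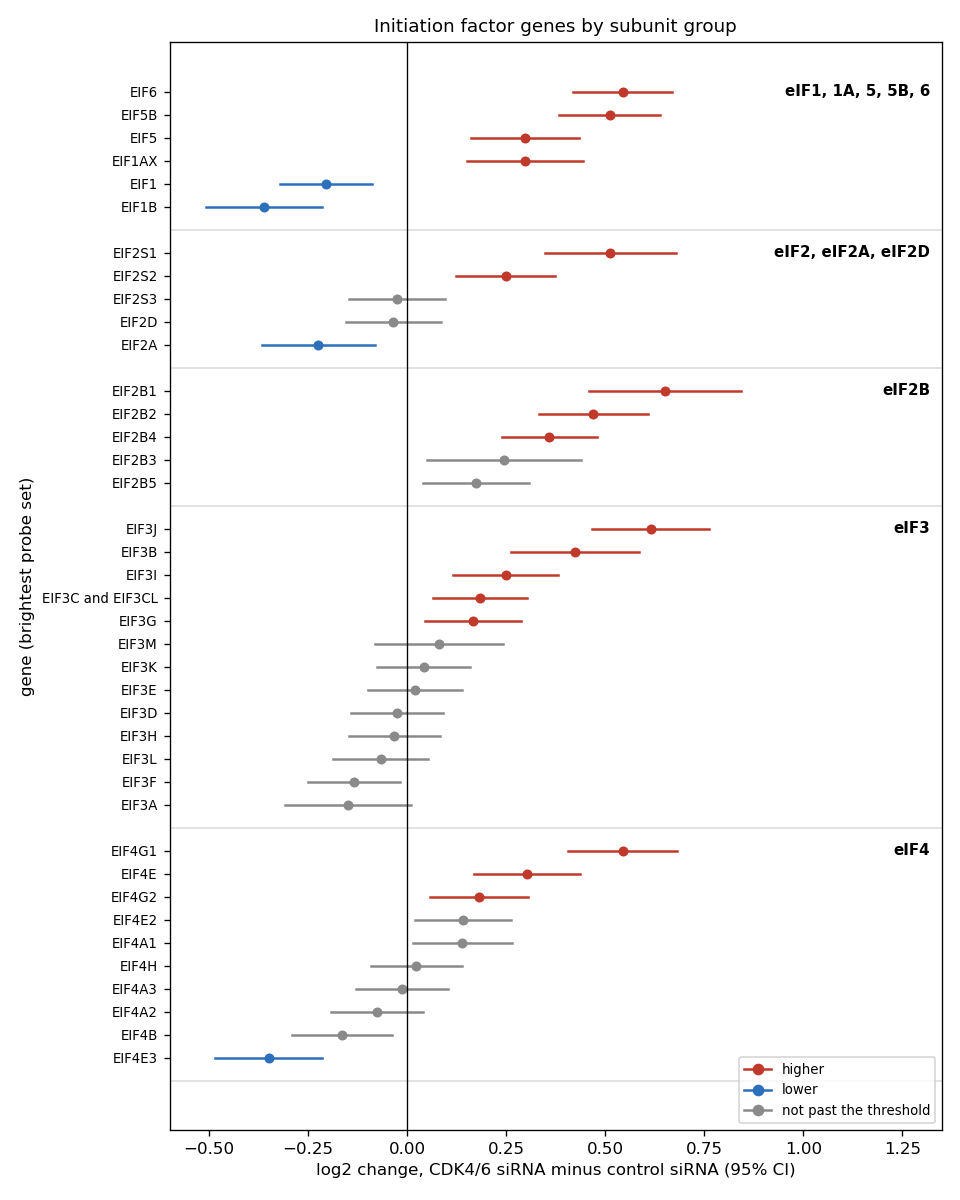
Log2 change of each initiation factor gene, CDK4/6 siRNA minus control siRNA, with its 95% confidence interval from limma (n = 3 arrays per group), grouped by factor and coloured by call. Among the 5 eIF2B genes all points lie above 0, whereas eIF3 is spread on both sides, from -0.15 for EIF3A to 0.62 for EIF3J.

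The genes of the factors that act on the scanning small subunit and at subunit joining were all called, 4 of 6 upward and 2 downward. Among the bright genes 49.6% were called, 27.5% higher and 22.1% lower. Whether these 6 differ from that share was not tested. EIF6, which binds the large subunit, takes part in its maturation and keeps it from joining too early, was at 10.06, 10.13 and 10.01 in the 3 control arrays and at 10.62, 10.62 and 10.59 in the 3 CDK4/6 siRNA arrays. The arrays within each group lay far closer together than the groups did, and EIF6 rose by 0.54 (SE 0.055, limma adjusted p = 0.000223), the smallest adjusted p among the members.

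EIF5B, the GTPase that joins the large subunit to the initiation complex, was at 10.88, 10.77 and 10.78 in control arrays and at 11.29, 11.34 and 11.33 after CDK4/6 siRNA. The groups stood well apart, and the rise was 0.51 (SE 0.057). EIF5 activates the GTPase of eIF2 when a start codon is found. It was at 11.24, 11.16 and 11.11 in control arrays against 11.51, 11.41 and 11.49, again without overlap, and rose by 0.30 (SE 0.060). On plain probe set identifiers it was 0.17 and not past the threshold. EIF1AX encodes eIF1A, which with eIF1 opens the small subunit for scanning. Its control values were 10.79, 10.72 and 10.91 and its CDK4/6 siRNA values 11.05, 11.13 and 11.13, a rise of 0.30 (SE 0.064).

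The genes for eIF1 itself, which guards against initiation at wrong codons, went the other way. EIF1 was among the brightest members at 13.53, 13.54 and 13.57 in control arrays and fell to 13.33, 13.36 and 13.33. This is a fall of 0.20 (SE 0.051, limma adjusted p = 0.0159), small beside the others but without overlap. Its call was lost with the spike-in scaling (-0.10), with the mean of its probe sets (-0.12) and without CDK4/6 siRNA replicate 3 (-0.20). On plain probe set identifiers its direction turned, to 0.14, not past the threshold. EIF1B, which encodes a close relative of eIF1, was at 11.26, 11.21 and 11.38 in control arrays and at 10.86, 10.96 and 10.94 after CDK4/6 siRNA. All 3 treated arrays lay below all controls, and the fall was 0.36 (SE 0.064, limma adjusted p = 0.00311).

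Of the 3 subunits of eIF2 measured, EIF2S1 and EIF2S2 rose and EIF2S3 did not pass. Differences between them were not tested. Together with EIF2A and EIF2D, described below, 2 of 5 genes were higher and 1 lower. That is 60% called, against 49.6% of the bright genes. EIF2S1, the alpha subunit whose phosphorylation by stress kinases blocks recharging, was at 10.83, 10.78 and 10.57 in control arrays. In CDK4/6 siRNA arrays it was at 11.22, 11.25 and 11.24, a rise of 0.51 (SE 0.073), and control replicate 3 was the lowest of the 6. EIF2S2, the beta subunit, moved from 12.04, 12.08 and 11.96 to 12.28, 12.27 and 12.29, a rise of 0.25 (SE 0.055). The gamma subunit EIF2S3, which holds the GTP and the initiator tRNA, had control values of 11.53, 11.53 and 11.59 and CDK4/6 siRNA values of 11.49, 11.52 and 11.57. These overlapped, the difference was -0.026 (95% confidence interval -0.15 to 0.096), and the other 2 EIF2S3 probe sets did not pass either, at 0.0087 and 0.13.

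Other proteins can bring initiator tRNA to the ribosome without eIF2. EIF2A, one such carrier, was at 12.08, 12.05 and 12.21 in control arrays and at 11.84, 11.94 and 11.87 after CDK4/6 siRNA, a fall of 0.23 (SE 0.063, limma adjusted p = 0.0269) without overlap. That call was lost with the spike-in scaling (-0.12), with every probe set tested (limma adjusted p = 0.0514), without control replicate 3 (-0.18), and without CDK4/6 siRNA replicate 1 (-0.20) or replicate 3 (-0.22). EIF2D, linked to reinitiation and ribosome recycling, differed by -0.035 and its groups overlapped.

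Of the 5 genes of eIF2B, the exchange factor that returns eIF2 to its GTP-bound form, 3 rose and 0 fell. That is 60% called, against 49.6% of the bright genes, with 27.5% higher and 22.1% lower. Whether so small a set differs from the bright genes was not tested. EIF2B1, the alpha subunit, had the largest change of all members. It was at 8.94, 8.87 and 8.61 in control arrays and at 9.49, 9.46 and 9.43 after CDK4/6 siRNA, a rise of 0.65 (SE 0.085, limma adjusted p = 0.000681), with control replicate 3 again the lowest. EIF2B2, the beta subunit, moved from 8.66, 8.65 and 8.51 to 9.06, 9.06 and 9.11 and rose by 0.47 (SE 0.061).

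EIF2B4, the delta subunit, forms the regulatory core of the complex together with the alpha and beta subunits. Its values were 9.14, 9.15 and 9.08 in control arrays and 9.47, 9.47 and 9.51 after CDK4/6 siRNA, a rise of 0.36 (SE 0.053), and its second probe set rose by 0.40. The gamma and epsilon subunits make up the catalytic part. EIF2B3 (gamma) gave 0.25 and EIF2B5 (epsilon, which carries the exchange activity) gave 0.17, with limma adjusted p = 0.0654 and 0.0576. The groups did not overlap for either gene. EIF2B3 passed the threshold without control replicate 1 (0.30), EIF2B5 without CDK4/6 siRNA replicate 2 (0.21), and both passed with the spike-in scaling (0.35 and 0.28). Whether the regulatory and catalytic subunits differ in their change was not tested.

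**Figure D2:**
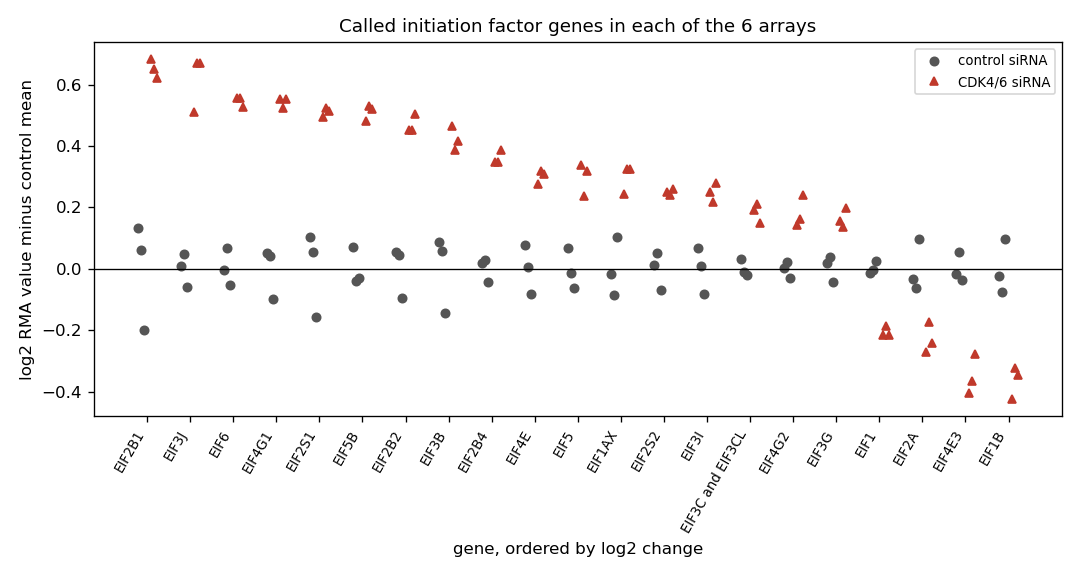
Log2 RMA value of each called member in each of the 6 arrays, as the difference from the control mean of that gene (control siRNA, grey circles; CDK4/6 siRNA, red triangles; 3 arrays each). The 17 higher genes on the left and the 4 lower genes on the right show no overlap between groups. They were called on these same values, and 70.4% of genes at least as bright as the dimmest member do not overlap either. Control replicate 3 is the lowest control for every higher gene except EIF1AX and EIF5B, and the highest for EIF1, EIF1B and EIF2A.

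The eIF3 complex, a large assembly that coats the small subunit and keeps it free for initiation, had 5 of 13 probe sets higher and 0 lower, with a median change of 0.041. That is 38.5% called, against 49.6% of the bright genes. Differences between its subunits were not tested. EIF3J, a loosely bound subunit that sits near the decoding site, was at 8.97, 9.01 and 8.90 in control arrays and at 9.47, 9.63 and 9.63 after CDK4/6 siRNA. It was the dimmest eIF3 gene and rose the furthest of them, by 0.62 (SE 0.065, limma adjusted p = 0.000267), and its second probe set rose by 0.37.

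EIF3B, EIF3I and EIF3G encode subunits that form one module of the complex. EIF3B was at 10.95, 10.92 and 10.72 in control arrays and at 11.33, 11.25 and 11.28 after CDK4/6 siRNA, and rose by 0.42 (SE 0.071). A dim EIF3B probe set, the brightest of those with plain identifiers (no _s, _x or _a suffix), stood at -0.032, not past the threshold. EIF3I moved from 11.87, 11.81 and 11.72 to 12.05, 12.02 and 12.08, a rise of 0.25 (SE 0.058) that lost its call without CDK4/6 siRNA replicate 3 (0.23). EIF3G moved from 10.83, 10.85 and 10.77 to 10.97, 10.95 and 11.01. The groups did not overlap and the change was 0.17 (SE 0.053, limma adjusted p = 0.0487), but the call was lost without any 1 of the 6 arrays, at values between 0.14 and 0.18.

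EIF3C and EIF3CL are near-identical copies whose probe set cannot tell them apart. It was at 11.88, 11.84 and 11.83 in control arrays and at 12.04, 12.06 and 12.00 after CDK4/6 siRNA, a change of 0.18 (SE 0.052, limma adjusted p = 0.0288). This call was lost without control replicate 2 (0.18) or 3 (0.17) and without CDK4/6 siRNA replicate 1 (0.18), 2 (0.17) or 3 (0.20). The brightest probe sets of the other eIF3 genes did not pass. These are EIF3A, the scaffold of the complex, at -0.15, EIF3D, a subunit that can itself bind caps, at -0.026, and EIF3E, EIF3F, EIF3H, EIF3K, EIF3L and EIF3M, between -0.13 (EIF3F) and 0.080 (EIF3M). Their probe sets were bright, with control means from 11.46 (EIF3K) to 13.40 (EIF3E), and the highest value on any array was 14.76. Any loss of range so near the top of the scale was not tested.

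Probe sets of the same gene did not always give the same call. Over all 107 member probe sets, 36 were higher and 6 lower, adjusted over all probe sets, against 8.86% and 8.17% of all 54613 and 17.0% in either direction. Bright genes were called more often than others, and no such share was computed for probe sets as bright as those of the members. Of the 27 members with more than 1 probe set, 0 had calls in both directions. In 5 the brightest did not pass in that fit while another rose, and all 5 were eIF3 genes. For EIF3A the brightest, at a level of 12.29, gave -0.15, whereas another at 9.26 was higher by 0.27. For EIF3F the brightest, at 12.61, gave -0.13, and a dim one at 6.02 was higher by 0.65. For EIF3H the values were -0.032 at 12.75 and 0.37 at 9.85, and for EIF3M 0.080 at 12.57 and 0.60 at 5.19. The fifth was EIF3C, where a probe set shared with EIF3CL was higher by 0.20. Which transcripts or transcript ends these probe sets read was not examined.

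The other members varied. All 4 probe sets of EIF1AX were higher, by 0.30 to 0.67, and all 4 of EIF4E3 were lower, by 0.33 to 0.51 in size. For EIF5B 4 of 6 were higher, the largest by 0.89 at a level of 7.81, and all 3 of EIF2S1 were higher, by 0.31 to 0.51. Calls rested on fewer probe sets in EIF3B (3 of 6 higher), EIF4E (2 of 5 higher), EIF4G1 (1 of 2 higher) and EIF1B (1 of 2 lower). Adjusted over all probe sets, EIF4G2 had 0 of 3 called, and the single probe sets of EIF3G and EIF2A did not pass either. EIF1 was called on its brightest alone, and its other 6 ran from -0.29 to 0.14.

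**Figure D3:**
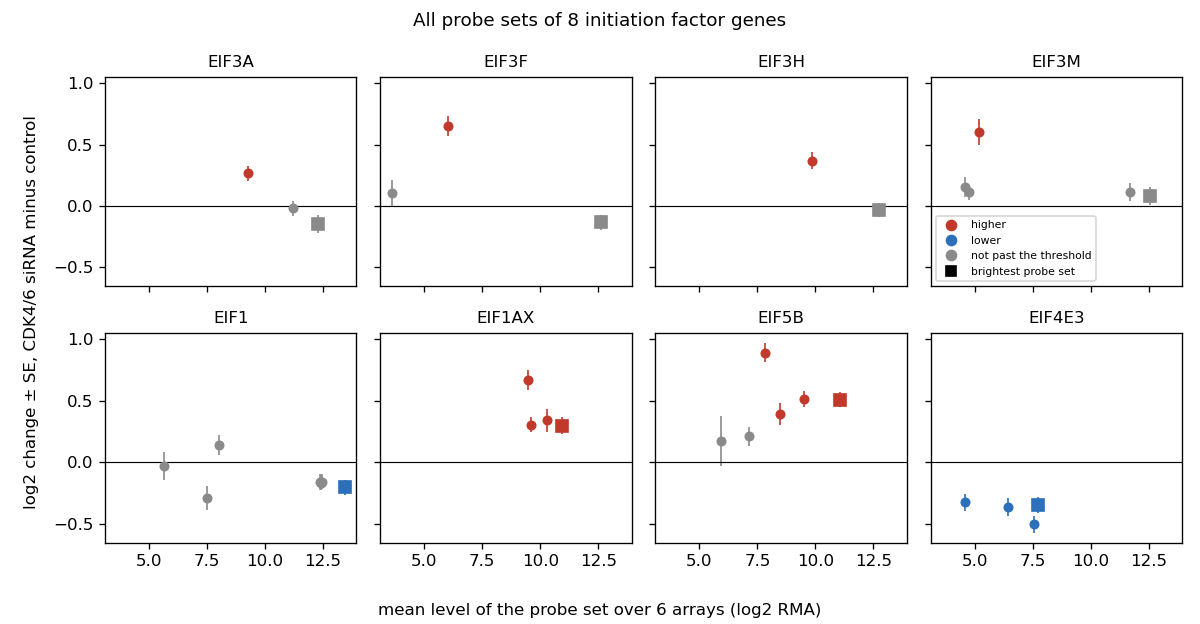
Log2 change ± SE of all probe sets of 8 members against their mean level over the 6 arrays, with the brightest probe set as a square and colours for the call adjusted over all probe sets. In EIF3A, EIF3F, EIF3H and EIF3M a dimmer probe set is higher while the brightest does not pass, at -0.15, -0.13, -0.032 and 0.080. All 4 probe sets of EIF1AX lie above 0 and all 4 of EIF4E3 below.

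Cap-dependent recruitment rests on eIF4F, made of the cap-binding protein eIF4E, the scaffold eIF4G and the helicase eIF4A. Of the 10 eIF4 probe sets 3 were higher, 1 was lower and 6 did not pass. That is 40% called, against 49.6% of the bright genes. EIF4G1, the main scaffold, was at 9.58, 9.57 and 9.43 in control arrays and at 10.08, 10.05 and 10.08 after CDK4/6 siRNA, a rise of 0.54 (SE 0.061, limma adjusted p = 0.000337). Its second probe set gave 0.41 and did not pass (adjusted p = 0.0989 over probe sets). EIF4E, the cap-binding protein, was at 10.58, 10.51 and 10.42 in control arrays and at 10.78, 10.82 and 10.81, without overlap, and rose by 0.30 (SE 0.058, limma adjusted p = 0.00486). The mean of its 5 probe sets gave 0.17 and did not pass.

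EIF4E and EIF4G1 are shown with their promoters because each holds 2 copies of CACGTG, the E-box that MYC binds with its partner MAX, among other factors, and EIF1B is shown beside them as a gene that fell and holds 1. The 250 bases upstream of an annotated start are given 5′ to 3′ from RefSeq (GRCh38.p14), with the E-boxes in capitals. EIF4E lies on the minus strand (chr4:98929134-98929383), and EIF4G1 (chr3:184314356-184314605, 1 of its 3 annotated starts) and EIF1B (chr3:40309457-40309706) on the plus strand.
EIF4E: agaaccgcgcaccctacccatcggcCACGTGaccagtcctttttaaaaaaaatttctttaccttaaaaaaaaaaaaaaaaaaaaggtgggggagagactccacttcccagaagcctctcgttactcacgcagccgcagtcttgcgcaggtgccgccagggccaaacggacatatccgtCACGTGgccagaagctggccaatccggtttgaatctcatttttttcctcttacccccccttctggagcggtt
EIF4G1: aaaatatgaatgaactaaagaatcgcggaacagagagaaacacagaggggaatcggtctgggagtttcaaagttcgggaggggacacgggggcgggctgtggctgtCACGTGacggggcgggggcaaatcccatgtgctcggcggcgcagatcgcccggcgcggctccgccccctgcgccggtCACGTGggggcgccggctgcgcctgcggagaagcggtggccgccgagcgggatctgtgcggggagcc
EIF1B: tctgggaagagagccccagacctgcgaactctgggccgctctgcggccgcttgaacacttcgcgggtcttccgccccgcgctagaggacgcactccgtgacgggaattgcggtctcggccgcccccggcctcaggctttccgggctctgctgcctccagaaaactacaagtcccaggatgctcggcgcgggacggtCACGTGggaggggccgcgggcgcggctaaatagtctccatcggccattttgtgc

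The E-boxes begin 225 and 72 bases before the start of EIF4E, 144 and 67 before that of EIF4G1 and 54 before that of EIF1B. The letters CACGTG read the same on both strands. Of the 33 members with an entry in the promoter table, 9 held at least 1 copy in these 250 bases (27.3%), against 7.73% of all 27305 genes. No such share was computed for genes as bright as the members. Whether the difference is particular to initiation factor genes was not tested. Among members that rose, 2 of 15 held it, among those that fell 1 of 4, and among those that did not pass 6 of 14. The other 6 were EIF2B3, EIF3F, EIF3K, EIF4A3, EIF4B and EIF4H. EIF2S2, EIF3A, EIF3CL, EIF3E, EIF3G, EIF3H and EIF3L had no entry. A match describes the letters only, and no binding was measured here.

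EIF4E3, an atypical cap-binding protein, was the dimmest member and the one eIF4 gene that fell. It was at 7.89, 7.96 and 7.87 in control arrays and at 7.50, 7.54 and 7.63 after CDK4/6 siRNA, a fall of 0.35 (SE 0.059, limma adjusted p = 0.00254) without overlap. EIF4E2, a cap-binding protein that represses translation, did not pass at 0.14 (limma adjusted p = 0.0840). EIF4G2, a scaffold relative that lacks the eIF4E site, moved from 12.67, 12.69 and 12.64 to 12.81, 12.83 and 12.91. Its change of 0.18 (SE 0.054, limma adjusted p = 0.0358) lost its call without any 1 of the 6 arrays, at values between 0.15 and 0.20.

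The helicase genes did not pass. EIF4A1, read by a probe set that also names the readthrough transcript SENP3-EIF4A1 and the small nucleolar RNAs of its introns, was at 13.37, 13.29 and 13.26 in control arrays and at 13.47, 13.43 and 13.43, a difference of 0.14 (limma adjusted p = 0.0982). EIF4A2, whose probe set likewise names intronic small RNAs, gave -0.076, and EIF4A3, a member of the exon junction complex, gave -0.013 with overlapping groups. The helicase cofactor EIF4B gave -0.16 (limma adjusted p = 0.0570), just outside the threshold, with control values of 12.18, 12.26 and 12.25 above all CDK4/6 siRNA values of 12.02, 12.09 and 12.09. The related cofactor EIF4H gave 0.023, and its groups overlapped.

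Related factors were also set against each other within each array, which removes any shift common to both. The test was an exact two-sided permutation over samples, where 3 arrays against 3 cannot give a p under 0.1. All 8 pairs compared reached that value (exact p = 0.1, and 0.1 after Benjamini-Hochberg adjustment), so none could pass 0.05, and the sizes are the result. How often other pairs of genes separate was not examined, and 70.4% of single bright genes do not overlap between the groups. The largest was EIF4E minus EIF4E3, which was 2.68, 2.55 and 2.56 in control arrays and 3.28, 3.28 and 3.18 after CDK4/6 siRNA. The balance between these cap-binding genes moved by 0.65 (SE 0.054) toward EIF4E.

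EIF4G1 moved by 0.36 (SE 0.047) relative to EIF4G2, from -3.09, -3.12 and -3.21 to -2.72, -2.79 and -2.82. EIF4A1 relative to EIF4A2 moved by 0.22 (SE 0.049), from -0.30, -0.40 and -0.46 to -0.14, -0.17 and -0.20, although neither helicase gene passed on its own. With the mean of all probe sets that shift was 0.040. EIF4A1 moved by 0.15 relative to EIF4A3, EIF4E by 0.16 relative to EIF4E2 (0.068 with the mean of all probe sets), and EIF1 by 0.16 relative to EIF1B, since EIF1B fell further (0.071 with the mean of all probe sets). EIF4B moved by -0.19 relative to EIF4H, and EIF2A by -0.19 relative to EIF2D.

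**Figure D4:**
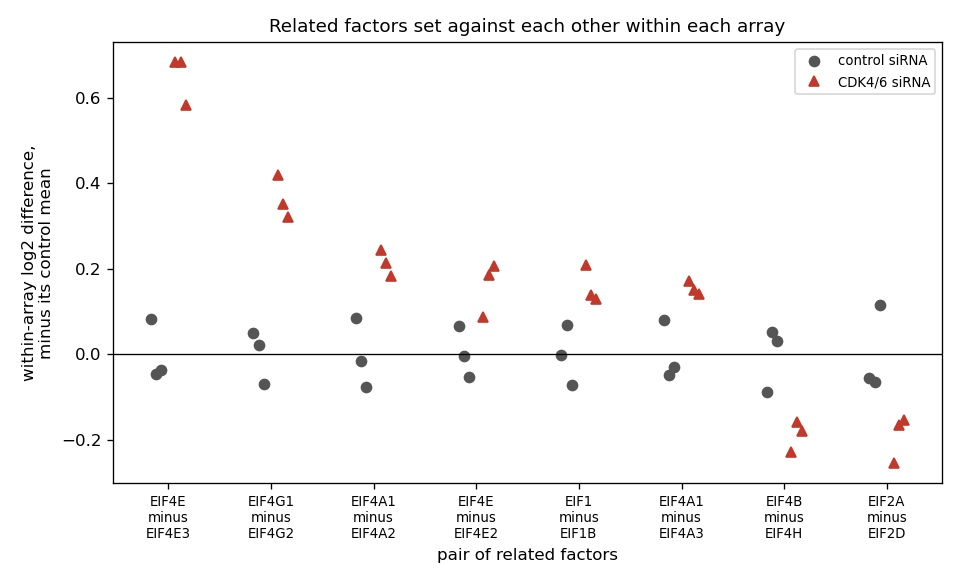
Within-array log2 difference between related initiation factors, less its control mean, for 8 pairs in 3 control siRNA arrays (grey circles) and 3 CDK4/6 siRNA arrays (red triangles). The groups do not overlap in any of the 8 pairs, and the shift runs from 0.65 for EIF4E minus EIF4E3 to -0.19 for EIF2A minus EIF2D. How often other pairs of genes separate was not examined.

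Of 30 genes that regulate or assist the factors, 10 were higher, 5 lower and 15 did not pass, with a median change of 0.025. These shares are near those of bright genes, of which 27.5% were higher and 22.1% lower. EIF4EBP2, which binds eIF4E and keeps it from eIF4G when it is not phosphorylated, rose by 0.72 (SE 0.061), more than any initiation factor gene. EIF2AK2, the RNA-activated kinase PKR of eIF2, rose by 0.49 (SE 0.056), and BZW2, which encodes an eIF5-mimic protein, by 0.46 (SE 0.056). These genes had the smallest adjusted p among the regulators that rose. DHX29, next in that order, rose by 0.49 (SE 0.061).

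The largest falls among the regulators were in kinases. EIF2AK3, the endoplasmic reticulum stress kinase PERK of eIF2, fell by 0.60 (SE 0.076), and MKNK2, which phosphorylates eIF4E, fell by 0.52 (SE 0.065). EIF4EBP3, a relative of EIF4EBP2, fell by 0.25 (SE 0.050) on a probe set that also names ANKHD1. It is given for its adjusted p, and PPP1R15B, next in that order, fell further, by 0.30 (SE 0.062). Of 13 measured elongation and termination factor genes, 3 were higher, 1 lower and 9 did not pass, with a median change of 0.038. That is 30.8% called, against 27.2% of all genes and 49.6% of the bright genes. The release factor ETF1 rose by 0.64 (SE 0.068), EIF5A, which helps ribosomes through difficult stretches, by 0.40 (SE 0.071) and the release partner GSPT1 by 0.18 (SE 0.053). EEF1D, a subunit of the elongation factor that recharges eEF1A, fell by 0.23 (SE 0.050).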

How the data were processed

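The deposited values are log2 expression per probe set of 6 single-channel arrays, made by the authors with RMA per the submitters' processing notes. RMA corrects background, equalises the distributions of the arrays and summarises probes. The sources used here do not give its version or any filter. The table held 54675 probe sets, 62 of them controls. The platform annotation gave 1 symbol to 41091 of the others and several to 1801.

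Each gene took the brightest probe set naming it, alone or among several, and a probe set standing for several genes was fitted once, which left 20284. All 40 members were found by symbol in a RefSeq table. The groups were compared in R 4.3.3 with limma 3.58.1 (lmFit, then eBayes), group as the only term, with Benjamini-Hochberg adjustment over all genes and a threshold of 0.05. The fit was tested on simulated data. Single differences were compared by exact permutation.

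Every member was to be named, with all 6 values for called members whose groups did not overlap. Of 10 pairs of related factors written down, 8 were compared, and the others were not analysed here. Members, lists and pairs were chosen with earlier results of these data known, and the comparison with genes at least as bright as the dimmest member was added after the values were seen. No detection calls were used, and the number of arrays limits the precision. Alternatives covered scaling, normalisation, probe set choice, dim genes, variance options, threshold, a replicate block and each array left out. Figures were drawn with matplotlib 3.10.9.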

Additional observations from a re-analysis of the deposited data

How the results depend on the processing

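Of the 21 called members, 12 kept their direction and their call under each of the 16 alternatives that gave a value for them: EIF1AX, EIF1B, EIF2B1, EIF2B2, EIF2B4, EIF2S1, EIF2S2, EIF3J, EIF4E3, EIF4G1, EIF5B and EIF6. The threshold, variance, block, dim-gene and every-probe-set alternatives leave the log2 change as it is, so only the call could change there. EIF2B4, EIF3J, EIF4G1 and EIF6 had no value on plain identifiers. Under spike-in scaling, 2 members were lower and the median was 0.25. On plain probe set identifiers alone, which left 32 members, 10 were higher. With trend and robust variance options 8 were lower, and at a threshold of 0.01 2 were lower and 3469 genes were called in all, against 5522. With every probe set tested, 9302 of 54613 probe sets were called, or 17.0%, against 27.2% of genes. In that fit 14 members were higher and 3 lower, and EIF2A, EIF3C, EIF3G and EIF4G2 lost their calls. With 1 array left out, members higher ran from 13 to 16, members lower from 2 to 4, the median from 0.13 to 0.15 and all calls from 4406 to 4931.

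Values that were called on either side turned sign with other probe sets. On plain identifiers these were EIF1 (0.14), EIF3A (0.27), EIF3B (-0.032) and EIF3F (0.65), and with the mean of all probe sets EIF3F (0.21) and EIF3H (0.17). Other values crossed 0 without passing on either side: with that mean EIF3A (0.033), EIF4A2 (0.086), EIF2S3 (0.036) and EIF3E (-0.00050), and on plain identifiers EIF3E (-0.020). EIF2D, EIF2S3, EIF3D, EIF3H, EIF3L, EIF4A2 and EIF4A3 crossed it under spike-in scaling, EIF4H with quantile normalisation, EIF4A2 on probe sets with 1 symbol, and EIF4A3 and EIF3E with 1 array left out. With the mean, EIF4E minus EIF4E3 was 0.56, EIF4E minus EIF4E2 0.068, EIF4A1 minus EIF4A2 0.040 and EIF1 minus EIF1B 0.071. A further 9 members that had not passed did so, in their own direction, under at least 1 alternative. The cause of these shifts was not tested. The same-numbered arrays of the groups showed no shared deviation (correlations of -0.0079, -0.12 and -0.0047). Differently numbered arrays ran from -0.073 to 0.091. So few arrays cannot settle whether the numbers pair the samples. With the replicate number as a block 14 members were higher and 3 lower, with EIF2A (limma adjusted p = 0.0525), EIF3C, EIF3G and EIF4G2 no longer past the threshold, and 4917 genes were called. With n = 3 per group, small changes such as those of EIF3G and EIF4G2 are at the limit of what these arrays resolve.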
